A study of Mus musculus with 6 samples.

Results

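The cells described here are lung fibroblasts (FBs) taken 14 days after mice received a single dose of PBS or bleomycin. They were chosen by their own counts. A barcode was kept when it held at least 1000 unique molecular identifiers (UMIs, each standing for 1 captured mRNA molecule), no UMI of Ptprc, Pecam1 or Epcam, which mark immune, endothelial and epithelial cells, and at least 3 UMIs of Col1a1, Col1a2 and Pdgfra together. The rule kept 876 of 1060 barcodes in the PBS library (82.6%) and 820 of 1015 in the bleomycin library (80.8%), which made 1696 cells of the 33286 barcodes in the 6 libraries of the series. All mice were male Pdgfra-GFP reporters, in which a nuclear GFP knocked into the Pdgfra locus marks cells that use the Pdgfra promoter, and they were 10 to 14 weeks old. Each library pooled the GFP+ cells sorted from the digested lungs of 3 mice, dosed through the oropharynx with 50 µl of PBS or of bleomycin. The labels state the bleomycin dose as 2 U/kg in one field and 4 U/kg in another. Each condition was 1 library, so nothing measures how mice differ, no test between conditions was possible, and every value below describes these 2 libraries. The intervals given are 95% intervals for counting error only.

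Pdgfra is the receptor through which platelet-derived growth factor A acts on mesenchymal cells, and in the alveolar wall it marks FBs that hold retinoids and lipid, supply surfactant lipid precursors to neighbouring epithelium and lay down elastin. Bleomycin breaks DNA and injures the alveolar epithelium. In mice the injury is followed by a fibrotic phase in which FBs divide, secrete collagen, fibronectin and matricellular proteins, and in part take up contractile genes. GFP is a stable protein and labels a cell that has recently used the Pdgfra promoter even where its Pdgfra mRNA is low.

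The PBS cells held 5955878 UMIs with a median of 6880.5 per cell, and the bleomycin cells 10107655 UMIs with a median of 11427.5. The median number of genes per cell was 2283 and 3158, and the median mitochondrial share 2.52% and 3.09%. The 3 genes that chose the cells gave a median of 14 UMIs per PBS cell and 56.5 per bleomycin cell. Near the limits of the rule, 29 PBS and 9 bleomycin barcodes had exactly 3 UMIs of the 3 fibroblast genes and were kept, and 21 and 12 had 2 and were left out. Another 67 PBS and 90 bleomycin barcodes had enough of these UMIs but also at least 1 of Ptprc, Pecam1 or Epcam. Only 1 barcode sequence was found among the chosen cells of both libraries. No doublet caller was run.

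Fibroblast markers that the rule did not use were checked against other barcodes, since droplets also capture free RNA. The summed level of Col3a1, Dcn, Lum, Tcf21, Pdgfrb, Fn1 and Mfap4 had a median of 5113 counts per 1000000 UMIs (CPM) per cell in PBS FBs and 15151 in bleomycin FBs. In barcodes with lymphocyte markers, 16 in PBS and 24 in bleomycin, the medians were 367 and 1303 CPM, and in 41 and 13 endothelial barcodes 1637 and 1192 CPM. These other barcodes often held such UMIs too, with at least 5 in 17 of the 24 lymphocyte and 12 of the 13 endothelial barcodes of bleomycin, and summed over barcodes they reached 4906 and 4414 CPM there, against 15689 in FBs. Summed endothelial markers were at 7.39 and 11.7 CPM in PBS and bleomycin FBs, and erythrocyte markers at 1.01 and 0.594 CPM. Other lists moved between the libraries. All 7 smooth muscle and mural markers were seen in bleomycin, with a sum of 0 to 625 UMIs per cell, against 6 of 7 and 0 to 38 UMIs in PBS (622 against 94.5 CPM). At least 5 of these UMIs, those of the actin gene Acta2 included, were present in 227 bleomycin and 19 PBS cells. Mesothelial markers gave 38.3 CPM in bleomycin, with at least 5 UMIs in 20 cells and up to 65 in a cell, and 1.68 CPM in PBS, with 3 of 6 markers at 0. Immune markers gave 320 and 279 CPM, with at least 5 UMIs in 15 PBS and 61 bleomycin cells. Epithelial markers other than Epcam gave 792 and 151 CPM, of which Scgb1a1 (below) gave 702 and 17.4 CPM and the surfactant gene Sftpc 81.3 and 119 CPM. At least 5 of these UMIs were present in 491 PBS and 25 bleomycin cells.

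For the comparison, UMIs were summed over the cells of each library, scaled to CPM and compared as a log2 ratio of bleomycin over PBS after adding 1 CPM to each side. Of 30828 genes in both tables, 12094 had at least 20 UMIs in the 2 libraries together. Their median log2 ratio was 0.08. A ratio of at least 1 was found for 1101 genes (9.10%), and one of at most -1 for 437 genes (3.61%). These shares are the background for the counts of listed genes below, where past the fold means beyond 1 or -1. More genes lay far up than far down, with 324 at 2 or above and 58 at -2 or below. Depth differed between the libraries, and with each cell thinned to 1000 UMIs 573 genes were higher and 436 lower, which moved the higher share of these calls from 71.6% to 56.8%. Fewer genes reached 20 UMIs after thinning, so these counts are not out of 12094 genes.

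**Figure D1:**
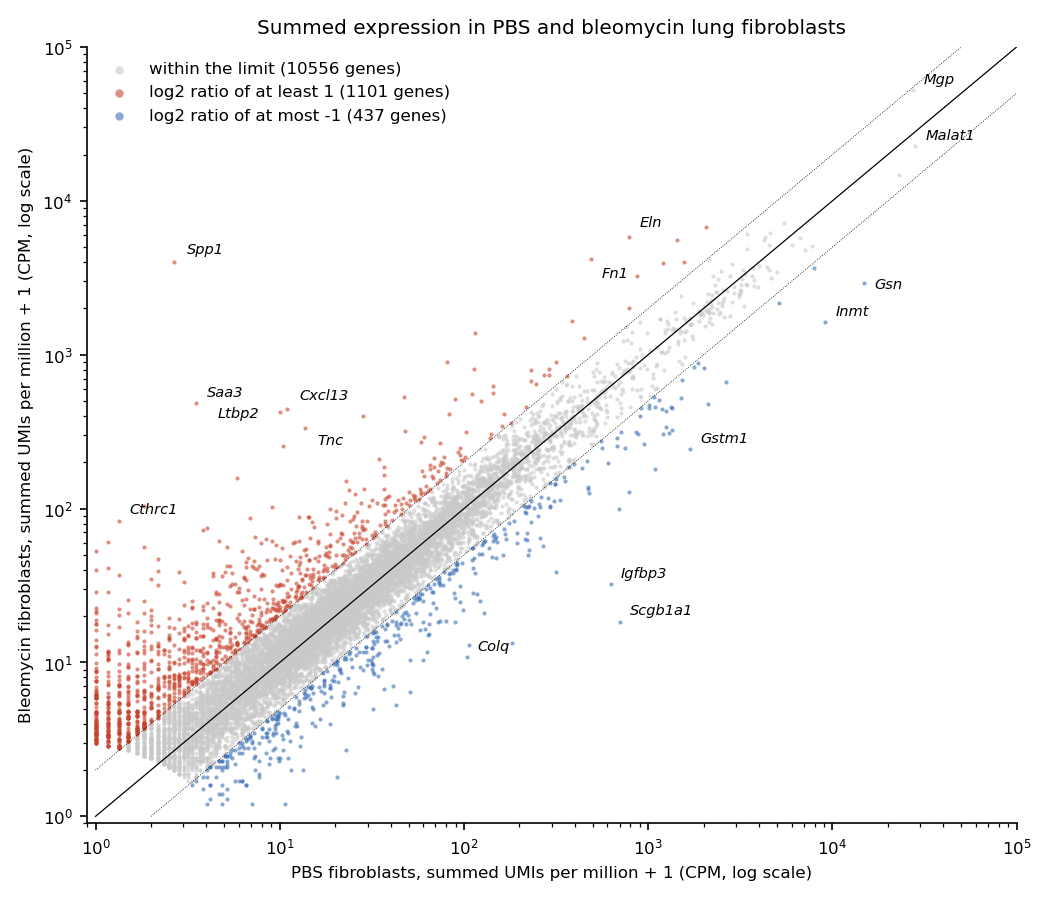
Summed expression of the 12094 genes compared, in PBS cells on the horizontal axis and bleomycin cells on the vertical axis, both as CPM + 1 on log scales. Each point is a gene, dotted lines mark log2 ratios of 1 and -1, and Spp1 lies farthest from the diagonal, at 1.68 CPM in PBS and 3982 CPM in bleomycin.

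The gene with the highest ratio was Spp1, which encodes osteopontin, a secreted matricellular phosphoprotein. It had 10 UMIs in all PBS cells (1.68 CPM) and 40246 in the bleomycin cells (3982 CPM), a log2 ratio of 10.54 (interval 9.93 to 11.11). The ratio was 8.31 with barcodes holding Ptprc, Pecam1 or Epcam kept, and 8.42 with 10 CPM added to each level in place of 1. In PBS endothelial barcodes Spp1 was at 170 CPM, with 60 UMIs in 5 of 41 barcodes. Saa3, an acute-phase protein, followed with 2.52 and 482 CPM and a ratio of 7.10 (6.55 to 7.65). Toward the other end, Igfbp3, which binds insulin-like growth factors, stood at 624 CPM in PBS and 31.5 CPM in bleomycin, a ratio of -4.27 (-4.43 to -4.11). Scgb1a1 had a lower ratio (-5.25) but was passed over here for its level in PBS lymphocyte barcodes (764 CPM, against 702 in PBS FBs). Among immediate early genes, Fos, the most counted, stood at 2632 and 668 CPM (-1.98). The 250 bases before the transcription start of Spp1, Saa3, Igfbp3 and Fos in RefSeq (build GRCm38.p6) are shown to place these 4 genes in the genome. They are given 5′ to 3′ on the gene's strand, with a TATAAA on the gene's strand in capitals.
Spp1, chr5:104434861-104435110, plus strand: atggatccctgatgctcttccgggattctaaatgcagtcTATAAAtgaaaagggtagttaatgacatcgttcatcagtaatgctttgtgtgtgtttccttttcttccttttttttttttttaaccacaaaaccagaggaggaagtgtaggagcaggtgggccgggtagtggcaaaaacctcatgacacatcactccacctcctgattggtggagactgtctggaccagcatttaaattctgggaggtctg
Saa3, chr7:46715677-46715926, minus strand: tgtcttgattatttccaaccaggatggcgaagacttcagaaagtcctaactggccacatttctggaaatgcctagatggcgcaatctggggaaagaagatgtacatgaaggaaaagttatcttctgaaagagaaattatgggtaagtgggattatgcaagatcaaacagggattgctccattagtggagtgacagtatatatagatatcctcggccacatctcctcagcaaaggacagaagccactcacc
Igfbp3, chr11:7213924-7214173, minus strand: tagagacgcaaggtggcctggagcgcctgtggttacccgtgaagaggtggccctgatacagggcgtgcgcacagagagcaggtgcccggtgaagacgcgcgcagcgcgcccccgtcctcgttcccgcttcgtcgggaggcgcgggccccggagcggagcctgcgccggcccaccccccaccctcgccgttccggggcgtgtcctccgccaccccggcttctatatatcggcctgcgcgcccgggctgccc
Fos, chr12:85473640-85473889, plus strand: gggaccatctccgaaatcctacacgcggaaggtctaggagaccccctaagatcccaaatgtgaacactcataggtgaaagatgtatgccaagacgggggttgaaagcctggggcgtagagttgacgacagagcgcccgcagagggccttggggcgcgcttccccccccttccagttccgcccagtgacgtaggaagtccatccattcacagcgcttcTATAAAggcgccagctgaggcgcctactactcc
TATAAA was found at -33 in Fos and at -211 in Spp1, counted from the start site to the first letter. On either strand it was found in 12.9% of 27025 mouse promoters of this length. Neither TGANTCA, the letters bound by AP-1 dimers, nor TGACGTCA, the cyclic AMP response element, was found in these 4 windows on either strand, against 6.87% and 1.56% of all promoters. A match or its absence describes these letters alone.

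Where a gene had 1 to 3 UMIs in a library, its interval follows in brackets. Several of the 15 highest genes encode matrix or secreted proteins. These 15 were taken among genes seen in at least 10% of the cells of either library. Some genes seen in fewer cells, such as Thbs4 (4.44) and Grem1 (4.50), had ratios above the lowest of the 15. Cthrc1, a secreted collagen triple helix protein, had 2 UMIs in PBS and 82.5 CPM in bleomycin (5.97, interval 5.23 to 6.33). Ltbp2, a latent TGF-beta binding protein of elastic fibres, went from 9.07 to 425 CPM (5.40). P4ha3, a subunit of collagen prolyl hydroxylase, had 0.840 and 55.5 CPM (4.94). Tenascin-C (Tnc) and periostin (Postn), matricellular proteins of healing tissue, stood at 12.8 against 333 CPM (4.60) and 2.85 against 72.1 CPM (4.25). Fst, follistatin, a soluble binder of activins, was at 9.40 and 254 CPM (4.62). Chl1, a neural adhesion molecule, had no UMI in PBS and 52.0 CPM in bleomycin, at least 103-fold higher when 3 UMIs over all PBS cells are taken as the floor. With 10 CPM added in place of 1, the ratios of Cthrc1, P4ha3, Postn and Chl1 were 3.16, 2.60, 2.68 and 2.63.

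Others of the 15 are inflammatory or are typical of other cells. Cxcl13, a B cell chemoattractant, stood at 9.91 and 445 CPM (5.35), and Lcn2, the iron-siderophore binder lipocalin 2, at 4.87 and 156 CPM (4.74). Lrg1, Slco2a1 (a prostaglandin transporter) and Ecscr (an endothelial surface protein) were at 35.9, 45.8 and 73.5 CPM in bleomycin FBs, with ratios of 4.79 [4.05 to 5.16], 4.43 and 4.21. In the 13 endothelial barcodes of the same library these genes reached 619.9, 703 and 399 CPM. Periostin was also higher in endothelial barcodes than in FBs, at 102 CPM in PBS and 154 in bleomycin. With barcodes holding Ptprc, Pecam1 or Epcam kept, the ratios of Slco2a1 and Ecscr were 1.42 and 2.62. The part of endothelial RNA in these ratios was not tested. Fabp4, a fatty acid carrier of adipocytes and capillaries, had a ratio of 5.69 [4.95 to 5.91], but 79.7% of its 600 bleomycin UMIs were in 1 cell, and without that cell the ratio was 3.49.

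Shares of cells with a UMI were compared after each cell was thinned at random to 2000 UMIs, which left 841 PBS and 797 bleomycin cells and dropped 35 and 23. The same share was taken in the lymphocyte barcodes of that depth, 15 in PBS and 23 in bleomycin, to show another cell type of the library. How much of their UMIs came from free RNA, doublets or their own expression was not tested. Spp1 was seen in 0.238% of PBS and 61.6% of bleomycin FBs (58.1% to 65.0%), and in 43.5% of bleomycin lymphocyte barcodes (23.2% to 65.5%). Of 13 bleomycin endothelial barcodes 69.2% held it (38.6% to 90.9%). These shares depend on the depth chosen. With each cell thinned to 1000 UMIs, 37.6% of bleomycin FBs held Spp1 (34.2% to 41.0%) and 26.7% held Ltbp2 (below). The per-cell median of Spp1 was 398 CPM in bleomycin FBs (quartiles 256 and 571), 290 CPM in the 24 lymphocyte barcodes (197 and 467) and 355 CPM in the endothelial ones (271 and 415), so these quartile ranges overlapped. Summed levels were further apart, at 3982 CPM in FBs, 694 in lymphocyte and 363 in endothelial barcodes. The part of free RNA in the UMIs of a typical bleomycin FB was not tested. Saa3 reached 19.1% of bleomycin FBs and 26.1% of lymphocyte barcodes (10.2% to 48.4%), and Cxcl13 12.7% and 17.4% (4.95% to 38.8%). Of the 13 endothelial barcodes 0 held Saa3, which allows a share of up to 23.1%, and 7.69% held Cxcl13 (0.195% to 36.0%). Summed levels of Saa3 were 482 CPM in FBs, 193 in lymphocyte and 43.4 in endothelial barcodes. Those of Cxcl13 were 445, 238 and 43.4 CPM. The part of free RNA in the shares of these 2 genes was not tested.

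Ltbp2 went from 0.951% of PBS to 41.2% of bleomycin FBs (37.7% to 44.7%), with 13.0% of lymphocyte barcodes (2.78% to 33.6%). Tnc went from 2.50% to 30.6%, beside 13.0% of lymphocyte barcodes (2.78% to 33.6%). Of the bleomycin endothelial barcodes 23.1% held Tnc (5.04% to 53.8%). Both of these intervals include the share of Tnc in bleomycin FBs. Fst was seen in 1.78% and 18.7% of FBs and in 0 of 23 lymphocyte barcodes, which allows a share of up to 13.0% when 3 barcodes are taken as the limit. Cthrc1, Chl1, P4ha3 and Postn were likewise at 0 of 23 there, and their shares in bleomycin FBs of 5.65%, 7.90%, 7.78% and 6.78% lay below that limit.

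**Figure D2:**
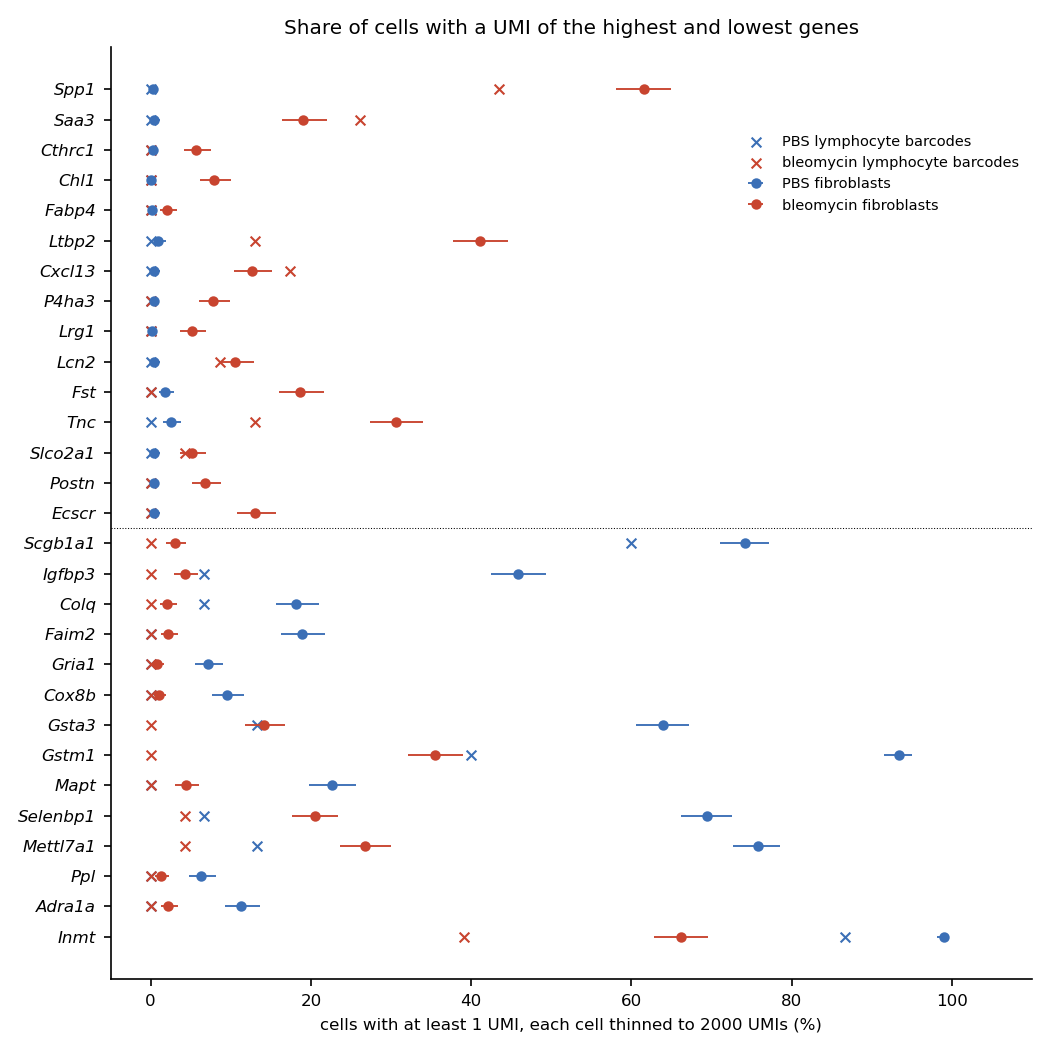
Share of cells with at least 1 UMI after thinning to 2000 UMIs per cell, for the 15 highest genes above the dotted line and 14 of the 15 lowest below it, in percent. Dots are PBS (blue) and bleomycin (red) FBs with 95% Clopper-Pearson intervals, and crosses are lymphocyte barcodes of the same library. Inmt went from 99.0% to 66.2% of FBs, beside 86.7% and 39.1% of lymphocyte barcodes, and the crosses for Saa3 and Cxcl13 lie to the right of the bleomycin dots.

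For some of these genes the bleomycin UMIs sat in few cells. The deepest 10% of bleomycin cells held 22.7% of all UMIs, and for 1428 genes with at least 1000 UMIs the median share held by the 10% of cells with the most UMIs of that gene was 33.9%. Only 11 of these genes exceeded 80%. They included Cxcl13 at 93.6%, the monocyte attractant Ccl2 at 91.7%, Spp1 at 91.5%, Saa3 at 89.3%, Lcn2 at 88.4% and Fst at 81.4%. The other 5 were Cd74, the eosinophil attractant Ccl11, Pi16 and the gene models Gm26870 and RP23-99G21.3. Of the 11, 5 had at least 100 UMIs in PBS. Their shares there were 100% for Ccl2, 99.8% for Ccl11, 97.2% for Cd74, 96.5% for RP23-99G21.3 and 93.7% for Pi16. This limit is below the 1000 UMIs asked for in bleomycin. A gene with UMIs in no more than 88 PBS cells reaches 100% in any case, so the 2 sets of shares are not alike in depth.

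**Figure D3:**
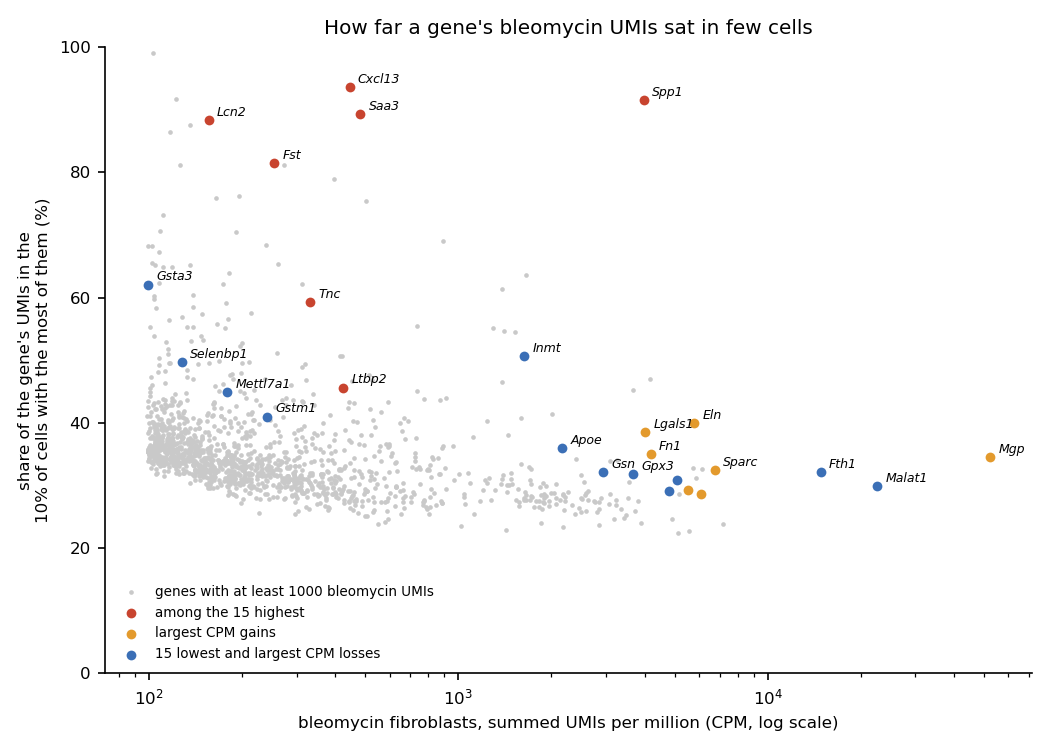
Share of a gene's bleomycin UMIs held by the 10% of cells with the most of them, in percent, against its level in CPM on a log scale, for genes with at least 1000 UMIs. Each point is a gene, and Cxcl13, Spp1, Saa3, Lcn2 and Fst lie above 80%, where the median is 33.9%.

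The 82 bleomycin cells with the highest Spp1 ranged from 1535 to 182747 CPM, with a median of 6701, and the other 738 cells from 0 to 1515 CPM. These cells were set apart on Spp1, so what follows is a description without a test. Their median depth was 13362 UMIs against 11115.5. Cthrc1 stood at 327 CPM in them and 44.6 in the others, Fst at 921 and 151, Slco2a1 at 187 and 23.9, and Tnc at 741 and 269 CPM. The pericyte proteoglycan Cspg4 was at 61.2 and 4.69 CPM, and at least 5 UMIs of the mural markers other than Acta2 were present in 29 of the 82 cells and 74 of the 738. Smooth muscle actin, Acta2, differed less, with 724 and 346 CPM. The elastin gene Eln and Col3a1 were lower in the Spp1-rich cells, at 4153 against 6039 and 4171 against 5756 CPM. Inmt and Gsn, high in PBS FBs, stood at 243 against 1847 and 643 against 3294 CPM. Cxcl13 lay in other cells, with 36.8 CPM in the Spp1-rich cells and 508 in the rest.

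Spearman correlations were taken over the 797 thinned bleomycin cells, as a description across cells of 1 library that share its free RNA. Among 28 named genes with 378 pairs the median rho was 0.02. Above 0.3 were 29 pairs and below -0.3 was 1. High values were seen between pairs of genes that were higher in bleomycin, such as 0.50 for Eln and Mgp and 0.50 for Igfbp7 and Mgp, and between pairs that were lower, such as 0.41 for Inmt and Gsn. Between higher and lower genes the values went both ways, from -0.32 for Gsn and Lgals1 and -0.24 for Gsn and Spp1 to 0.47 for Cst3 and Eln, 0.45 for Cst3 and Igfbp7 and 0.44 for Cst3 and Mgp.

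The lowest ratio of all belonged to Scgb1a1, the secretoglobin of airway club cells, at 702 CPM in PBS and 17.4 in bleomycin (-5.25). After thinning it was in 74.2% of PBS FBs and in 60% of PBS lymphocyte barcodes (32.3% to 83.7%), which held 764 CPM. Endothelial barcodes of that library held 738 CPM. The summed level of this epithelial RNA was thus no higher in PBS FBs than in those other barcodes. The part of free RNA in it was not tested. Igfbp3 was in 45.9% of PBS FBs and 4.27% of bleomycin FBs. Of the 15 PBS lymphocyte barcodes 6.67% held it (0.169% to 31.9%), and of 38 PBS endothelial barcodes 28.9% (15.4% to 45.9%). Its summed level in PBS was 624 CPM in FBs and 434 CPM in endothelial barcodes.

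Several enzymes that act on small molecules were among the 15 lowest. Gstm1 and Gsta3, glutathione S-transferases, went from 1682 to 242 CPM (-2.79) and from 696 to 99.1 CPM (-2.80). Gstm1 was in 93.5% of PBS and 35.5% of bleomycin FBs, beside 40% of the 15 PBS lymphocyte barcodes (16.3% to 67.7%) and 0 of the 23 in bleomycin, which allows a share of up to 13.0%. Of the endothelial barcodes 86.8% held it in PBS (71.9% to 95.6%) and 23.1% in bleomycin (5.04% to 53.8%). Their summed levels of Gstm1 were 1308 and 233 CPM. Selenbp1, a methanethiol oxidase, went from 783 to 128 CPM (-2.61), and Mettl7a1, a methyltransferase-like protein, from 1085 to 179 CPM (-2.59). Inmt, indolethylamine N-methyltransferase and a marker of alveolar FBs, stood at 9128 CPM in PBS and 1632 in bleomycin (-2.48). Its per-cell median was 8717 CPM in PBS and 659 in bleomycin. Lymphocyte barcodes held 1755 CPM of Inmt in PBS and 298 in bleomycin, and endothelial barcodes 4980 and 1374 CPM.

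The other genes among the 15 lowest that are given here were below 130 CPM in PBS FBs. Colq, the collagen tail of acetylcholinesterase, had a ratio of -3.26 and Gria1, a glutamate receptor subunit, of -3.03. Faim2, an inhibitor of Fas-driven death in neurons, was at -3.03, Mapt, the microtubule protein tau, at -2.62, and Cox8b, the muscle form of a cytochrome c oxidase subunit, at -2.99. The adrenergic receptor gene Adra1a (58.8 and 9.40 CPM, -2.52) was also among the 15, with the plakin Ppl at -2.55. PBS endothelial barcodes held more Mapt and Colq than PBS FBs, at 233 against 127 CPM and 119 against 103 CPM. Levels of Faim2, Gria1, Cox8b, Adra1a and Ppl were lower in these barcodes than in PBS FBs. The part of endothelial RNA in these ratios was not tested.

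The largest gains in CPM included several matrix genes. Mgp, matrix Gla protein and an inhibitor of calcification, had the largest, from 27499.6 to 52237 CPM, although its ratio of 0.93 stayed within the fold. Eln went from 786 to 5786 CPM (2.88), Fn1, fibronectin, from 491 to 4186 CPM (3.09), and Sparc, a collagen-binding glycoprotein, from 2069.7 to 6755 CPM (1.71). Igfbp7 and Lgals1 had ratios of 0.83 and 1.35. All 6 genes were also higher in the bleomycin than in the PBS lymphocyte and endothelial barcodes. In lymphocyte barcodes Mgp was at 8698 and 19881 CPM in PBS and bleomycin, Fn1 at 118 and 1424, and Sparc at 334 and 2713. Eln was at 452 and 640 CPM there. The part of free RNA in these gains was not tested. The largest loss was that of Gsn, the actin-severing protein gelsolin, from 14889 to 2938 CPM (-2.34). Next came the ferritin heavy chain Fth1 (-0.64), Inmt, the nuclear RNA Malat1 (-0.31) and the secreted glutathione peroxidase Gpx3 (7939 and 3677 CPM, -1.11). Then followed Apoe (5123 and 2168 CPM, -1.24), the ferritin light chain Ftl1 (-0.60) and the protease inhibitor Cst3 (-0.55). All of these were also lower in bleomycin endothelial barcodes. In lymphocyte barcodes Gsn, Inmt, Malat1 and Ftl1 were lower in bleomycin. Fth1, Gpx3, Apoe and Cst3 were higher there, with Apoe at 1216 CPM in PBS and 2207 in bleomycin.

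The gene groups were read from 45 lists with 857 genes, of which 787 were compared. A list is described by its members past the fold and its median ratio, against 9.10% higher, 3.61% lower and a median of 0.08 over all genes. The median passed 1 in 9 lists and -1 in 1 list. Above 0 were 38 of the 45 medians, as was the median over all genes. With 10 CPM added to each level in place of 1, the median stayed past 1 or -1 in 2 lists.

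**Figure D4:**
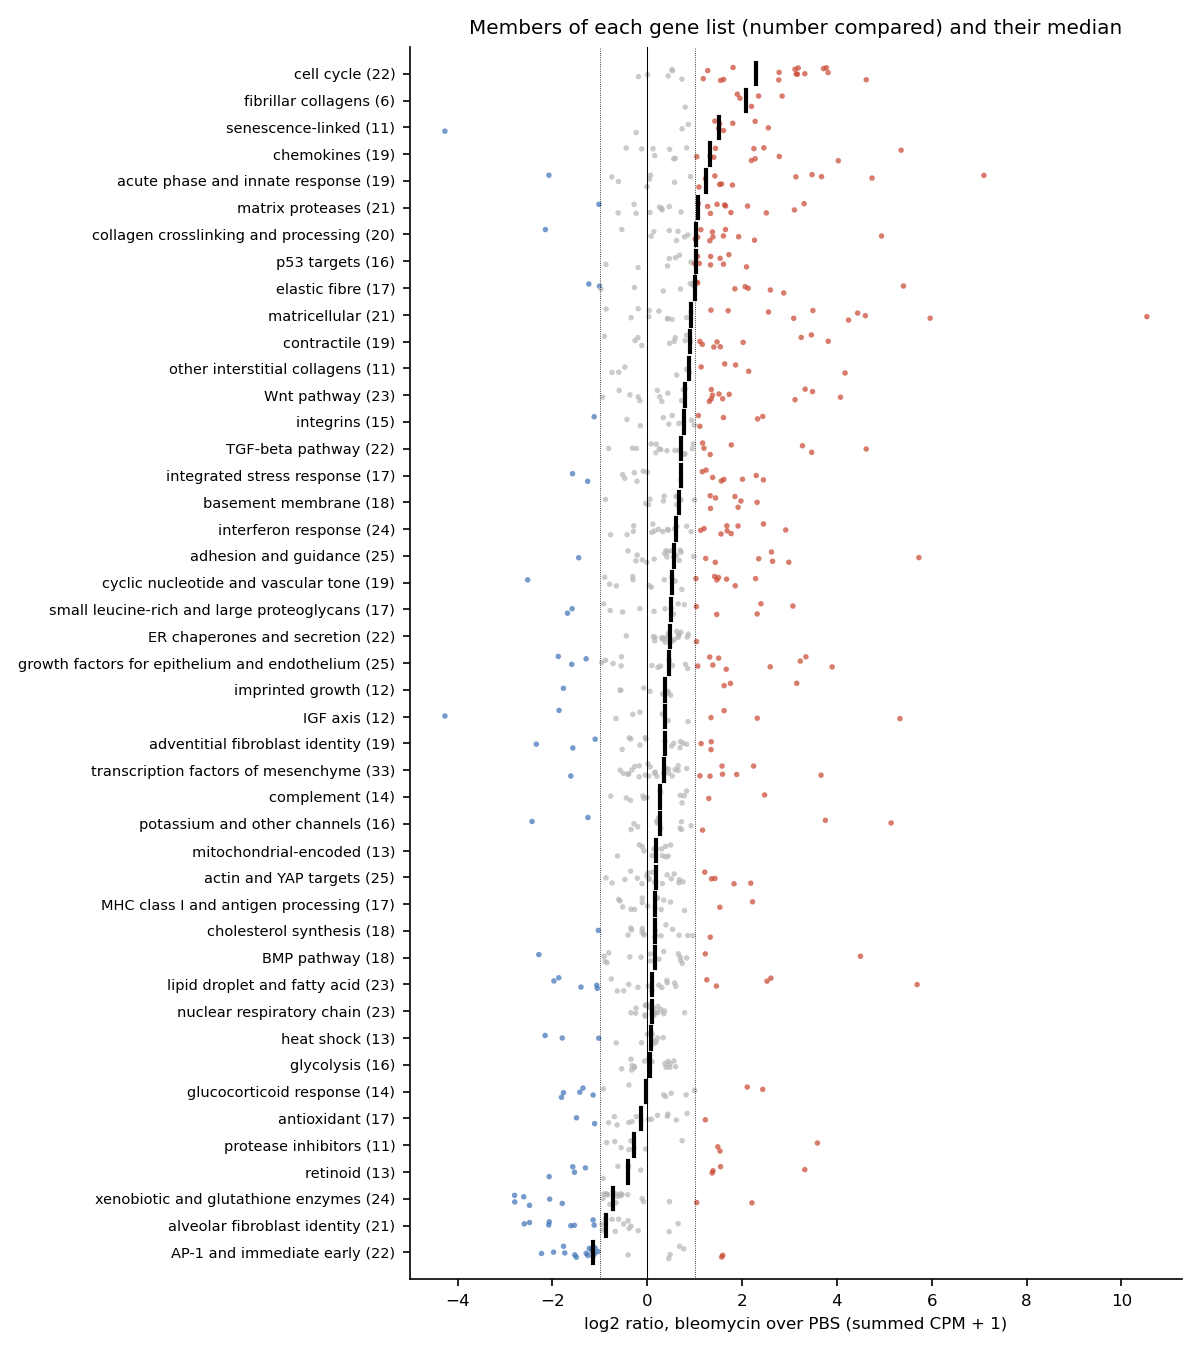
Log2 ratio of bleomycin over PBS (CPM + 1) for each member of the 45 gene lists, with the number compared in brackets. Points are genes, red at 1 or above, blue at -1 or below and grey between, and black bars are medians, which run from -1.15 for AP-1 and immediate early genes to 2.29 for the cell cycle.

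Fibrillar collagens form the tensile fibres of scar. Col1a1 and Col1a2 chose the cells and are not read here. Of 6 others compared, 5 were higher past the fold and none lower (median 2.08). Col3a1 stood at 1429 and 5543 CPM (1.96), Col5a2, which sets fibril width, at 112 and 809 CPM (2.84), and Col27a1 at 37.8 and 66.6 CPM (0.80). Among 11 other interstitial collagens 5 were past the fold (median 0.89). The short-chain collagen Col8a1 was highest (1.18 and 38.2 CPM, 4.17) and its partner Col8a2 lowest (-0.74). The beaded-filament collagens Col6a1 and Col6a3, the most counted, were at 0.83 and 0.89.

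Basement membrane genes had 7 of 18 members higher (median 0.68), with type IV collagen chains Col4a1 at 142 and 561 CPM (1.98) and Col4a2 at 2.32. Npnt, the nephronectin of the alveolar basement membrane, was lowest (1116 and 606 CPM, -0.88). The elastic fibre list, 9 of 17 higher and 2 lower (median 1.01), held members at opposite ends. Eln, Ltbp2 and the microfibril genes Fbn1 (2.13) and Fbn2 (0 UMIs in PBS, 5.05 CPM in bleomycin) were higher. Fbln5, which joins elastin to cells, was at -1.01, and the latent TGF-beta binder Ltbp4 went from 677 to 287 CPM (-1.23). Mfap4, a microfibril protein with many UMIs, was at 0.96.

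Enzymes that modify, cut and crosslink collagen had 11 of 20 members higher and 1 lower (median 1.04). Beside P4ha3, the procollagen C-proteinase Bmp1 (2.26), the lysyl oxidases Lox (1.32), Loxl2 (1.65) and Loxl3 (1.93) and the lysyl hydroxylase Plod2 (1.39) were past the fold. Loxl1, the elastin crosslinker and one of the most counted, was at 0.62. The exception was Pcolce2, an enhancer of the C-proteinase, with 2119 CPM in PBS and 477 in bleomycin (-2.15).

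Matricellular genes, which encode secreted regulators of cell and matrix contact, had 10 of 21 members higher (median 0.93). They included Spp1, Cthrc1, Tnc, Postn, Fn1 and Sparc above, the thrombospondins Thbs1 (1.34), Thbs2 (2.56) and Thbs4 (0 UMIs in PBS, 20.7 CPM in bleomycin) and Wisp1 (3.49). The lowest was Cyr61 at -0.87. Proteoglycans were mixed, with 5 of 17 higher and 2 lower. Syndecan 1, Sdc1 (3.36 and 35.6 CPM), the hyaluronan synthase Has2 (2.40 [1.61 to 2.88]) and versican, Vcan (2.32), were higher, while osteomodulin and osteoglycin, Omd and Ogn, were at -1.68 and -1.58. Decorin, Dcn, was at -0.15 and biglycan, Bgn, at 0.51.

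Proteases that cut matrix had 11 of 21 members higher and 1 lower, the stromelysin Mmp11 (-1.02), with a median of 1.08. The median was 0.59 over the members with at least 100 UMIs and 0.44 with 10 CPM added in place of 1. The membrane sheddases Adam12 (0 UMIs in PBS, 8.90 CPM in bleomycin) and Adam19 (5.20 and 52.3 CPM, 3.10), the collagenolytic cathepsin Ctsk (2.12), Mmp14 (1.63) and the gelatinase Mmp2 (289.8 and 806 CPM, 1.47) were among the higher members. Of 11 inhibitors 3 were higher and the median was -0.28. Timp1, an inhibitor of metalloproteinases, stood apart, from 114 to 1379 CPM (3.59, interval 3.48 to 3.70). Cst3 and Serping1, the most counted inhibitors, were at -0.55 and -0.39, and the metalloproteinase inhibitor Reck at -0.86.

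In the TGF-beta pathway, the main driver of matrix genes in FBs, 7 of 22 members were higher (median 0.72). The activin subunits Inhba (2.01 and 32.4 CPM, 3.47) and Inhbb (3.27 [2.50 to 3.50]), their binder Fst, the ligand Tgfb1 (41.1 and 105 CPM, 1.33) and Lrrc32, which holds latent TGF-beta at the cell surface (1.20), were past the fold. The co-receptor Tgfbr3 was lowest, at -0.81. The related BMP list was near the background, with 2 higher and 1 lower of 18. Its soluble antagonists lay at the extremes. Grem1, gremlin, had 0 UMIs in PBS and 21.6 CPM in bleomycin, while Chrdl1, chordin-like 1, went from 88.8 to 17.4 CPM (-2.29).

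Wnt genes had 11 of 23 members higher and none lower (median 0.80). The highest were secreted antagonists: Dkk2 at 0.504 and 24.3 CPM (4.07 [3.34 to 4.53]), Sfrp1 at 46.2 and 527 CPM (3.49), Sfrp2 at 3.33 and Frzb at 3.12 [2.34 to 3.50]. Among ligands Wnt5a (1.59) and Wnt11 (1.31) were higher and Wnt2, made by alveolar FBs, was the lowest member (154 and 79.5 CPM, -0.95). Lef1, a transcription factor of the pathway, was at 1.73 [0.89 to 1.98]. For factors that act on epithelium and endothelium, 9 of 25 were higher and 3 lower. The neurotrophin Bdnf (0.168 and 16.4 CPM, 3.90 [3.14 to 4.12]), the EGF receptor ligands Ereg (3.35 [2.58 to 3.58]) and Hbegf (3.23) and the lymphatic growth factor Vegfc (2.59) were higher. Fgf7, keratinocyte growth factor (166 and 67.5 CPM, -1.29), and the neurotrophin Ntf3 (13.9 and 3.07 CPM, -1.88) were lower. In the insulin-like growth factor axis Igf1 went from 110.1 to 554 CPM (2.32) and its binding protein Igfbp2 from 0 UMIs to 39.2 CPM. Igfbp4 was at 1.34, Igfbp6 at -1.86 and Igfbp3 at -4.27.

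Contractile genes had 9 of 19 members higher and none lower (median 0.91). Acta2 stood at 27.2 and 397 CPM (3.82), the calponin Cnn1 at 3.25 [2.48 to 3.48], enteric actin Actg2 at 3.46 and the tropomyosin Tpm1, the most counted, at 244 and 648 CPM (1.40). Markers of smooth muscle and mural cells summed to 622 CPM in bleomycin and 94.5 CPM in PBS. Acta2 and Cnn1 belong to both lists, and Acta2 alone gave 397 and 27.2 CPM of these sums. Without the cells holding at least 5 UMIs of other cell types' markers, Acta2 not counted, which left 379 PBS and 636 bleomycin cells, the median was 0.64. Most of the PBS cells lost in this way held epithelial UMIs, chiefly of Scgb1a1. With the epithelial markers not counted either, 849 PBS and 654 bleomycin cells were left and the median was 0.68. Of 25 actin-linked genes and YAP targets 5 were higher, led by S100a4 (35.6 and 165 CPM, 2.18). The integrins, receptors for matrix, had 5 of 15 higher and 1 lower. The collagen-binding chain Itga1 (2.44) and the fibronectin-binding chain Itga5 (2.33) were highest and Itga8 lowest (348 and 159.8 CPM, -1.12). Among adhesion and guidance genes 7 of 25 were higher and 1 lower (Plxna2, -1.45), with Ncam1 at 2.64 beside Chl1.

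Genes typical of alveolar FBs were lower as a list. None of 21 was higher past the fold, 8 were lower, and the median was -0.88. Tcf21, a transcription factor of lipid-holding FBs, went from 604 to 197 CPM (-1.61), and the cysteine dioxygenase Cdo1 and the amino acid transporter Slc7a10 were at -2.07 and -2.08. Hsd11b1, which makes active glucocorticoid, stood at 1523 and 689 CPM (-1.14). Several of these genes, such as Inmt and Tcf21, were known from earlier results of these data when the list was made. Adventitial FB genes did not move one way, with 3 of 19 higher and 3 lower. Gsn was lowest, and Sfrp4 (1.35) and Igfbp4 highest.

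Of 33 mesenchymal transcription factors 7 were higher and 1 lower. Runx1 had the highest ratio, from 5.88 to 86.3 CPM (3.67, interval 3.24 to 4.11). Runx2 and Sox9, factors of bone and cartilage, were at 2.24 and 1.89, and Twist1 at 1.11. Nfib and Nr2f2, the most counted, were at -0.32 and -0.39. Tcf21 was the only member lower past the fold.

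Metabolic genes split by pathway. Xenobiotic and glutathione enzymes had 2 of 24 higher and 6 lower (median -0.73), with the flavin monooxygenase Fmo2 at -2.06 beside the enzymes above. The higher members were Cyp1b1 (6.88 and 35.4 CPM, 2.21) and the haem oxygenase Hmox1 (1.04). Retinoid genes were divided, with 4 of 13 past the fold up and 4 down. Lrat, which esterifies retinol for storage (224 and 52.5 CPM, -2.07), and the retinaldehyde dehydrogenase Aldh1a1 (-1.53) were lower, and Cyp26b1, which degrades retinoic acid (0.168 and 10.7 CPM, 3.32 [2.55 to 3.55]), and Aldh1a2 and Aldh1a3 (1.55 and 1.37) were higher.

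Lipid droplet and fatty acid genes were also divided, 5 up and 5 down of 23. Among those up, Fabp4 had most of its UMIs in 1 cell (above) and Plin1 had 27 UMIs in 0.244% of bleomycin cells. The list's median of 0.10 was -0.24 without the cells holding other cell types' markers, or -0.09 with the epithelial markers not counted. Lipoprotein lipase, Lpl, was at 88.5 and 514 CPM (2.53) and Fabp5 at 2.61, against the lipases Pnpla2 (-1.05) and Lipe (-1.07), the lipase inhibitor G0s2 (1242 and 339.7 CPM, -1.87), Dgat2, which makes triglyceride (-1.40), and the lipid phosphatase Plpp3 (-1.97). None of 16 glycolysis genes, none of 23 nuclear genes of the respiratory chain and none of 13 mitochondrial genes passed the fold, with medians of 0.07, 0.10 and 0.19. Cholesterol synthesis had 1 up and 1 down of 18, and antioxidant genes 1 up (Sod2, 1.23) and 2 down of 17.

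Acute-phase and innate genes had 11 of 19 members higher and 1 lower (median 1.23). Haptoglobin, Hp, went from 79.4 to 894 CPM (3.48), the pentraxin Ptx3 was at 1.01 and 16.6 CPM (3.13), and the cytokines Il33, Lif, Il6 and Il11 were at 1.57, 1.53, 1.43 and 1.23. The receptor chain Il6ra was lowest, from 63.6 to 14.3 CPM (-2.07). Chemokine genes had 11 of 19 higher and none lower (median 1.33). That median was 0.55 with 10 CPM added, 0.89 in cells with at least 10 UMIs of the rule's genes and 0.99 with the excluded barcodes kept. The interferon-linked Cxcl9 (0 UMIs in PBS, 15.3 CPM in bleomycin) and Cxcl10 (2.78), the monocyte attractants Ccl2 (24.5 and 123 CPM, 2.28) and Ccl7 (2.46), and Cxcl12, which attracts and retains leukocytes (270.5 and 735 CPM, 1.44), were higher. Cxcl14 was the most counted, at 1239 and 1382 CPM (0.16), and the scavenging receptor Ackr3 was lowest (-0.44). Cells with at least 5 UMIs of immune markers numbered 61 in bleomycin and 15 in PBS. Without the cells holding other cell types' markers the medians were 1.22 for acute-phase genes and 1.11 for chemokines, or 1.18 and 1.46 with the epithelial markers not counted.

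Interferon response genes had 9 of 24 higher (median 0.60), with Zbp1 at 6.88 and 58.7 CPM (2.92), Isg15 at 1.77 and the most counted, Ifitm3 and Ifitm2, at 0.15 and -0.29. Class I antigen presentation genes had 2 of 17 higher, H2-Q7 (2.22), which shares much of its sequence with other class I genes, and the class I transactivator Nlrc5 (1.53 [0.68 to 1.79]). B2m and H2-D1 were at 0.21 and -0.11. Of 14 complement genes 2 were higher, clusterin, Clu (5.37 and 34.4 CPM, 2.47), and C6 (1.30), while C3, the central component, was at 552 and 672 CPM (0.29).

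Immediate early genes, whose products include the AP-1 subunits, were the list with a median past -1 (-1.15). Of 22 members 15 were lower. Fos stood at 2632 and 668 CPM (-1.98), Jun at 1509 and 522 CPM (-1.53), Junb at -1.29, Fosb at -1.77 and the stress factor Atf3 at -2.23. The 2 higher members were Myc (3.86 and 13.7 CPM, 1.59) and the AP-1 subunit Fosl1 (0.504 and 3.46 CPM, 1.57 [0.74 to 2.09]). With each cell weighing the same the median was -0.93. The inducible heat shock genes Hspa1a and Hspa1b, nearly identical in sequence, were at -2.15 and -1.79 and the median of 13 heat shock genes was 0.08. Glucocorticoid-responsive genes had 5 of 14 lower, Tsc22d3 lowest (218 and 61.6 CPM, -1.81), and 2 higher, Ddit4 (2.44) and the metallothionein Mt2 (383 and 1657 CPM, 2.11).

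The integrated stress response had 8 of 17 members higher, among them the amino acid genes Slc7a5 (1.18 and 10.9 CPM, 2.45), Asns (2.30), Psat1 (1.56), Phgdh (1.24) and Mthfd2 (1.62). Its 2 lower members were Ppp1r15a (-1.58) and Atf5 (-1.26). The median of 0.71 did not keep its sign, at -0.04 over the members with at least 100 UMIs and -0.45 with each cell thinned to 1000 UMIs. Of 22 endoplasmic reticulum chaperones and secretion genes 21 had ratios above 0, as had most of all genes compared. Only 1 passed the fold, and the median was 0.47 against 0.08 over all genes.

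Targets of p53, the factor activated by DNA damage, had 9 of 16 members higher and none lower (median 1.03). The median was below 1 in 11 alternative settings, the lowest of them 0.53 with 10 CPM added and 0.68 with each cell thinned to 1000 UMIs. The cell cycle inhibitor Cdkn1a stood at 102 and 312 CPM (1.61), Mdm2 at 1.33, the death receptors Eda2r and Tnfrsf10b at 1.72 and 1.54 [0.71 to 2.06], Bax at 1.06 and Phlda3, the most counted, at 200.3 and 381 CPM (0.92). Senescence-linked genes had 7 of 11 higher and 1 lower (Igfbp3). This list shares members with other lists here, among them Cdkn1a, Ccl2, Il6, Igfbp3 and Mmp3. Its inhibitors Cdkn2a and Cdkn2b were at 0.336 and 3.66 CPM (1.80 [0.97 to 2.22]) and at 1.18 and 11.8 CPM (2.55). Without the cells holding other cell types' markers the list's median of 1.51 was 0.87, or 1.32 with the epithelial markers not counted.

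Cell cycle genes had 16 of 22 members higher and the highest median (2.29). Ube2c, which drives mitotic exit, was at 0.168 and 27.7 CPM (4.62 [3.87 to 4.84]) and Mki67 at 0.168 and 9.50 CPM (3.17 [2.39 to 3.40]). Top2a had 0 UMIs in PBS and 13.1 CPM in bleomycin. The G1 cyclin Ccnd1, which is also used outside division, was at 5.54 and 43.7 CPM (2.77). These UMIs sat in few cells. Among 820 bleomycin cells 21 had at least 5 UMIs of Mki67, Top2a, Cdk1, Ccnb1 and Birc5 together, against none of 876 PBS cells, which allows a share of up to 0.342% when 3 cells are taken as the limit. These 21 held 85.4% of the UMIs of the 5 genes, and their median depth of 23398 UMIs was above the 6880.5 of the PBS cells. After thinning to 2000 UMIs per cell, 36 of 797 bleomycin and 3 of 841 PBS cells had at least 1 of these UMIs, and 12 and 0 had at least 2, where 0 of 841 allows a share of up to 0.357%. Without the 39 bleomycin cells with a UMI of Mki67 or Top2a the list's median was 0.89, and with each cell thinned to 1000 UMIs it was 0.45.

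Among channel genes 3 of 16 were higher and 2 lower, and among genes of cyclic nucleotides and vascular tone 7 of 19 and 1. The mechanically gated channel Piezo2 went from 1.85 to 37.5 CPM (3.76), and the potassium channel Kcnk2 from 62.0 to 10.7 CPM (-2.43). Carbonic anhydrase 3, Car3, had a ratio of 5.14 [4.40 to 5.36] with 95.6% of its bleomycin UMIs in 1 cell. The prostaglandin receptor Ptger3 was at 2.28, and endothelin 1, Edn1, and the angiotensin-converting enzyme Ace at 1.67 and 1.86. Among imprinted growth genes Nnat (3.15) was highest and the cell cycle inhibitor Cdkn1c (88.0 and 25.1 CPM, -1.77) lowest.

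A separate experiment of the series, in which mice of the same reporter line were given PBS or bleomycin through the oropharynx once a week for 3 weeks and lungs were taken 14 days after the last dose, gave 5183 PBS and 7640 bleomycin FBs by the same rule, at median depths of 10435 and 3736.5 UMIs, so that there the PBS cells were the deeper ones. Of 30 genes at the ends of the single-dose comparison, 29 had the same sign in that pair of libraries, including all 15 of the highest. Spp1 was at 9.12 there and Ltbp2 at 5.45, beside 10.54 and 5.40 after a single dose. Tnc, Cxcl13 and Fabp4 were at 1.49, 2.80 and 1.82, beside 4.60, 5.35 and 5.69 [4.95 to 5.91]. Igfbp3 was at -2.79 and Inmt at -1.77. The exception was Scgb1a1, at 1.17. Among 11351 genes compared in both experiments, 1019 of 1046 higher genes (97.4%) and 370 of 395 lower genes (93.7%) kept their sign, where 64.7% of all genes were above 0 and 35.3% below in the repeated-dose pair. Past the fold there too were 624 and 134 of them, where 838 (7.38%) and 213 (1.88%) of the 11351 genes were higher and lower past the fold in that pair. The list medians of the repeated-dose pair were 1.15 for the cell cycle, 1.64 for fibrillar collagens, -0.84 for immediate early genes, -0.78 for alveolar FB genes and 0.18 for acute-phase genes. Each is 1 pair of libraries, and the differences between the experiments were not tested.

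**Figure D5:**
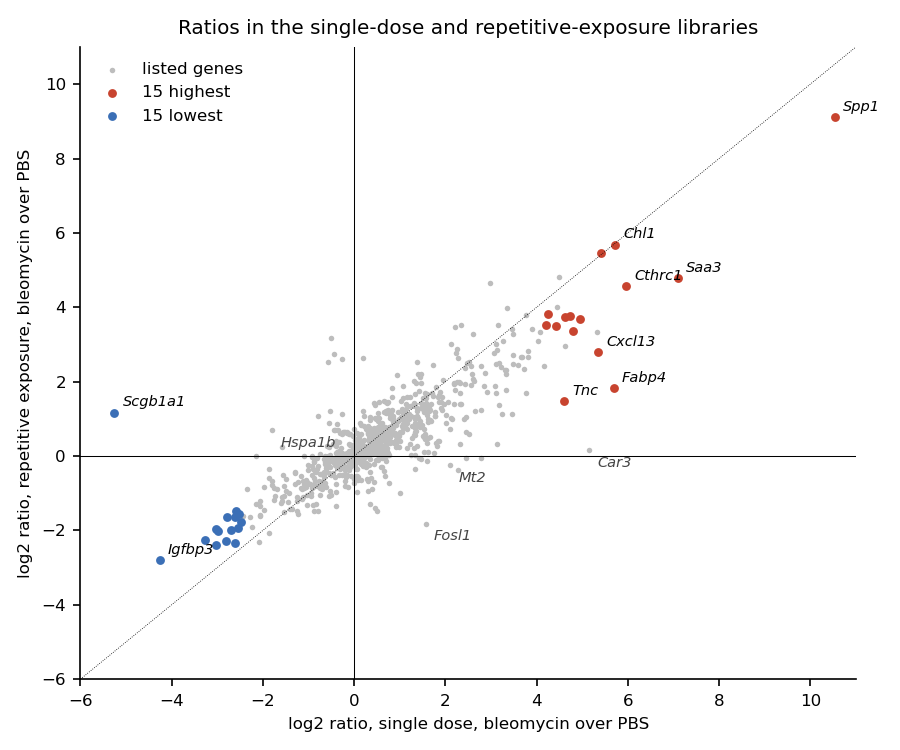
Log2 ratio of bleomycin over PBS after a single dose (horizontal) and after repeated doses (vertical), for listed genes in grey and the 15 highest (red) and 15 lowest (blue) single-dose genes. Each point is a gene and the dotted line marks equal ratios. Scgb1a1 is the only blue point above 0 on the vertical axis, at 1.17.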

How the data were processed

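Live GFP+ lung cells were profiled with the 10x Chromium 3′ assay. The authors aligned and counted reads with Cell Ranger 3.0.1 against GRCm38 with Gencode M17, and deposited UMI counts per gene symbol and barcode for barcodes called as cells, not normalized. Their clustering in Seurat 3 was not used. The PBS table holds 30830 gene rows, with eGFP and tdTomato, and that for bleomycin holds 30828. Totals over shared genes were 7196200 and 11869967 UMIs. Counting by 3′ tags depends little on gene length and cannot separate closely related copies.

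Cells were chosen by the rule in the report, since the files used here hold no cell annotation. Lymphocyte barcodes had at least 2 UMIs of T or B cell markers. UMIs were summed per library and compared as CPM with a pseudocount of 1 CPM. Intervals for levels are exact Poisson, those for shares above 0 Clopper-Pearson, and those for ratios an exact binomial split of the gene's UMIs. For a share of 0 the limit is 3 counts over the cells examined. Listed genes without a UMI in 1 library left every list's median the same when set at the bound that 3 UMIs give. Cells with more UMIs weigh more in a sum, and doublets and free RNA can move it. Python 3.11.15, numpy 2.4.6, pandas 2.3.3 and scipy 1.17.1 were used. The intervals were run on simulated Poisson counts, the counting model they assume. These counts hold no clumping of a gene's UMIs in few cells, so the intervals do not cover it.

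Named genes were the 15 highest and 15 lowest ratios and the 8 largest gains and losses in CPM. In each list the highest, the lowest and the most counted members were named too. The 15 highest and 15 lowest came from genes with at least 100 UMIs in the 2 libraries together. These genes also had at least 1 UMI in at least 10% of either library's cells, and the same sign with each cell weighing equally. Genes of the rule, ribosomal, mitochondrial and sex-linked genes and unnamed models were left out. Other genes named, such as further list members and those whose UMIs sat in few cells, were chosen after their values were seen. The members and lists were chosen with earlier results of these data known. Of the 15 lowest, 1 gene is not reported here. The 2 organoid libraries were not used here, and the repeated-dose libraries only where stated. Alternatives changed the cell rule, scaling, pseudocount, gene filter, weighting and cells left out.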

Additional observations from a re-analysis of the deposited data

Results flagged for a closer look

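The eGFP row, present in the PBS table alone and used in no comparison, held 4881 UMIs in 902 of 1060 barcodes. It was seen in 92.8% of PBS FBs (90.9% to 94.4%) at a summed 750 CPM, in 56.1% of 41 endothelial barcodes at 391 CPM and in 25% of 16 lymphocyte barcodes at 140 CPM. The bleomycin table used here has no such row.

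Of the named genes past the fold after a single dose and compared in both experiments, 12 had the opposite sign in the repeated-dose pair. These differences between experiments were not tested. Genes higher after a single dose were the matricellular Thbs1 (1.34, against -0.36 after repeated doses), the metallothionein Mt2 (2.11, -0.25), the cytokine Il6 (1.43, -0.0558), the chemokines Ccl2 (2.28, -0.37), Ccl7 (2.46, -0.0466) and Cxcl10 (2.78, -0.0609), and the transcription factors Myc (1.59, -0.15) and Fosl1 (1.57 [0.74 to 2.09], -1.82). Those lower after a single dose were Scgb1a1 (-5.25, 1.17), the angiopoietin Angpt2 (-1.59, 0.23), the heat shock gene Hspa1b (-1.79, 0.69) and the adventitial gene Clec3b (-1.10, 0.00498). In 4 of the 12, Il6, Ccl7, Cxcl10 and Clec3b, the repeated-dose ratio lay within 0.1 of 0.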

How the results depend on the processing

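No named gene and no list median past the fold changed its sign in the alternatives run. Medians within the fold did for 7 lists, in 26 values. That of the integrated stress response, 0.71, was -0.04 with at least 100 UMIs per gene and -0.45 with each cell thinned to 1000 UMIs. The other 6 (protease inhibitors, cholesterol synthesis, heat shock, glycolysis, lipid droplet and fatty acid, glucocorticoid response) had main medians from -0.28 to 0.17. No paired analysis was possible because each condition had 1 library. The main counts were 1101 genes higher, 437 lower and 10 list medians past the fold. With 10 CPM added in place of 1 they were 327, 179 and 2. Requiring 100 UMIs per gene gave 630 genes higher. That setting and the thinning compared fewer genes than the main 12094, so their counts have a smaller base. Thinning each cell to 1000 UMIs gave 573 genes higher and 6 lists, and the share of higher genes among those past the fold went from 71.6% to 56.8%. Lists past the fold numbered 6 with at least 10 UMIs of the rule's FB genes, 5 with barcodes holding Ptprc, Pecam1 or Epcam kept, and 6 with ratios centred on the median gene. The cause was not tested. The number of named genes with the same sign after repeated doses was 29 under every alternative of the comparison that gave a value.

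Keeping the excluded barcodes moved Spp1 to 8.31, Slco2a1 to 1.42 and Ecscr to 2.62, and Scgb1a1 to -8.46. With 10 CPM added in place of 1, Saa3 was at 5.30, Fabp4 at 2.77, Slco2a1 at 2.32 and Lrg1 at 2.15. The medians of the elastic fibre, crosslinking, protease and p53 lists, just over 1, were below 1 under several settings each, as was that of the chemokines in 3 (0.55 to 0.99). Gpx3 was at -0.9995 without cells holding other cell types' markers, and at -0.99 with the epithelial ones not counted. That setting and leaving out the cell with the most UMIs of a gene were chosen after seeing the data. With 1 library per condition, depth limits the counting error but nothing here measures the spread between mice.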
